A study of Homo sapiens with 10 samples.

Results

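The genes described here are 10 genes of bone morphogenetic protein (BMP) signalling, chosen by name: the ligands BMP4 and BMP7, the receptor BMPR1A, the inhibitors SMAD6, SMAD7 and BAMBI, and the target genes ID1, ID2, ID3 and ID4. Of these, 9 had a row in the expression table of 14785 rows, of which 13808 are genes and 977 are transposable elements and other features. BMP4 is not analysed here. RNA was sequenced from H1, an established human embryonic stem cell line of wild-type genotype, grown on Matrigel in mTeSR1, a medium that keeps such cells undifferentiated. All cells received a packaged shRNA virus and were selected with puromycin. The control group, shLUC, carried an shRNA against luciferase, and 4 groups carried an shRNA against SMARCA4 (the BRG1 ATPase of the SWI/SNF chromatin remodeller), MAFK (a small MAF transcription factor), E2F6 (a repressive E2F factor) or KDM1A (the histone demethylase LSD1). Each of the 5 groups had 2 libraries, stated to be biological duplicates. The labels name the target of each shRNA but not the number of shRNA sequences per target. Values are whole numbers that the authors had normalized, taken here to be normalized tag counts from an abbreviation in the table; their depth is unknown, and levels are compared only within a gene.

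BMP ligands bind pairs of type I and type II receptors, and the type I receptor phosphorylates SMAD1, SMAD5 and SMAD9, which enter the nucleus with SMAD4 and switch on target genes. The ID genes are direct targets: ID proteins lack a DNA-binding region and hold E proteins, which are basic helix-loop-helix factors, in dimers that cannot bind DNA. SMAD6, SMAD7 and BAMBI are also induced by the pathway and dampen it. In human embryonic stem cells, added BMP drives cells out of pluripotency, toward trophoblast-like or amnion-like cells or, with other signals, toward mesoderm.

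The targeted genes stood at 12.7% (SMARCA4), 59.6% (MAFK), 61.3% (E2F6) and 42.1% (KDM1A) of their shLUC mean in the group named for them. MAFK was at 82 and 216 in the shMAFK libraries against 212 and 288 in shLUC, so replicate 2 of shMAFK lay inside the control range. KDM1A was at 3290 and 1879 in replicates 1 and 2 of shKDM1A, against 6344 and 5925 in shLUC. All 12 pluripotency markers examined had a row, among them POU5F1, at 16615 to 148866 over the 10 libraries. The shKDM1A libraries differed most from each other: their standard deviation on the log2 scale was 0.813 over the 9 genes described here, against 0.169 to 0.335 in the other groups, and 0.530 over all rows, against 0.264 to 0.335.

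ID1 differed among the 5 groups, and no other of the 9 genes passed that test. ID1 was lowest in shSMARCA4, at 50.6% of its shLUC mean, and highest in shMAFK and shKDM1A, at 186% and 180%. ID1 was lower in shSMARCA4 than in shMAFK and than in shKDM1A, and ID3 was lower in shSMARCA4 than in shKDM1A, each past the adjusted threshold of 0.05. Against shLUC itself none of the 9 genes passed that threshold in any knockdown. The test was limma's, on log2(value + 1), two-sided, in 1 fit of all 10 libraries with p-values adjusted by the Benjamini-Hochberg method over all 14785 rows. All 4 knockdowns were set against the same 2 shLUC libraries, so their changes are not independent of each other.

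**Figure D1:**
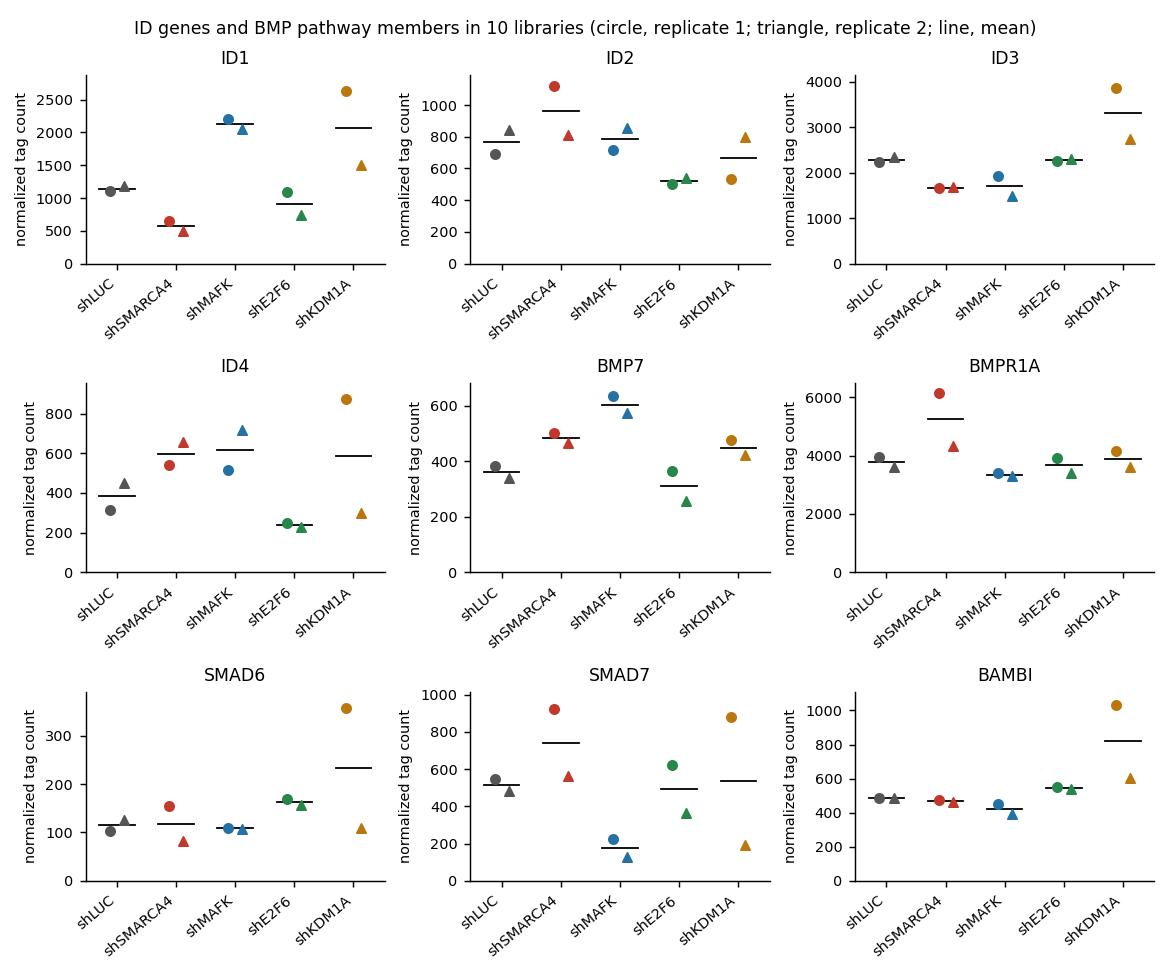
Normalized tag count (y axis, linear, from 0) of the 9 genes in each of the 10 libraries, by group (x axis). Circles are replicate 1, triangles are replicate 2 and lines are group means; ID1 runs from 504 in a shSMARCA4 library to 2628 in a shKDM1A library.

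BMP7 (ENSG00000101144, chr20:57168748-57266629, hg38), the ligand measured, was at 382 and 338 in shLUC, 500 and 464 in shSMARCA4, 475 and 421 in shKDM1A, 636 and 572 in shMAFK and 364 and 258 in shE2F6. The shMAFK libraries were the highest and overlapped no other group, and those of shE2F6 overlapped shLUC. In shMAFK the log2 change against shLUC was 0.75 (SE 0.19, unadjusted p = 0.003326, adjusted p = 0.233 by limma), so BMP7 did not pass the adjusted threshold. The 5-group F-test missed it as well, with an adjusted p of 0.06873. The difference between shMAFK and shE2F6, 0.97 on the log2 scale, had an adjusted p of 0.06863 by limma.

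BMPR1A (ENSG00000107779, chr10:86756601-86932838), a type I receptor for BMP2 and BMP4, was at 3966 and 3622 in shLUC, 6143 and 4340 in shSMARCA4, 4165 and 3604 in shKDM1A, 3413 and 3289 in shMAFK and 3928 and 3413 in shE2F6. Both shSMARCA4 libraries lay above every other library, but they were far apart. Their log2 change against shLUC was 0.45 (SE 0.19, unadjusted p = 0.04269, adjusted p = 0.2827 by limma), and it ranged from 0.20 to 0.70 when single libraries were left out. BMPR1A has processed pseudogenes, and how reads that fit both were counted is not given in the sources used here.

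SMAD7 (ENSG00000101665, chr18:48919853-48952052), an inhibitory SMAD that blocks type I receptors of both the BMP and the TGF-beta branch, was at 547 and 482 in shLUC, 922 and 562 in shSMARCA4, 880 and 194 in shKDM1A, 224 and 130 in shMAFK and 622 and 362 in shE2F6. The shMAFK libraries were the lowest but for replicate 2 of shKDM1A, which lay between them. In shMAFK the log2 change was -1.58 (SE 0.61, unadjusted p = 0.02889, adjusted p = 0.4932 by limma). The difference between shSMARCA4 and shMAFK, 2.07 on the log2 scale, had an adjusted p of 0.07719.

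SMAD6 (ENSG00000137834, chr15:66702228-66782848), the inhibitory SMAD that acts mainly on the BMP branch, was at 104 and 126 in shLUC, 154 and 82 in shSMARCA4, 358 and 110 in shKDM1A, 110 and 108 in shMAFK and 170 and 156 in shE2F6. The shE2F6 libraries were both above shLUC, and the 1 high value was replicate 1 of shKDM1A. No comparison of SMAD6 with shLUC reached an unadjusted p of 0.05.

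BAMBI (ENSG00000095739, chr10:28677342-28682939), a pseudoreceptor that lacks the kinase part of a type I receptor, was at 487 and 486 in shLUC, 474 and 460 in shSMARCA4, 1034 and 605 in shKDM1A, 449 and 394 in shMAFK and 550 and 540 in shE2F6. Each group's libraries stood clear of the other groups', in the order shMAFK, shSMARCA4, shLUC, shE2F6, shKDM1A. In shKDM1A the log2 change was 0.70 (SE 0.23, unadjusted p = 0.01299, adjusted p = 0.3503 by limma). With replicate 2 of shKDM1A left out, so that replicate 1 stood alone, it was 1.09.

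ID1 (ENSG00000125968, chr20:31605283-31606515), a common readout of BMP signalling, was at 1108 and 1184 in shLUC, 655 and 504 in shSMARCA4, 2628 and 1501 in shKDM1A, 2208 and 2053 in shMAFK and 1095 and 737 in shE2F6. In order of means the groups ran shSMARCA4, shE2F6, shLUC, shKDM1A and shMAFK; of neighbours in that order, shKDM1A and shMAFK overlapped. The F-test over the 5 groups gave ID1 an adjusted p of 0.01773. Without shLUC replicate 1 that p was 0.05021, without shSMARCA4 replicate 1 or 2 it was 0.07277 or 0.1018, and without shMAFK replicate 1 or 2 it was 0.06571 or 0.06829.

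Against shLUC, the log2 change of ID1 was -0.99 in shSMARCA4 (SE 0.28, unadjusted p = 0.006524, adjusted p = 0.1009 by limma). It was 0.89 in shMAFK (SE 0.28, unadjusted p = 0.01149, adjusted p = 0.36) and 0.79 in shKDM1A (SE 0.28, unadjusted p = 0.02047, adjusted p = 0.388). In shE2F6, replicate 1 was next to shLUC and replicate 2 well below it. The shared estimate of spread includes the uneven shKDM1A libraries. With both of them left out, the adjusted p of ID1 in shSMARCA4 was 0.02191, and without shKDM1A replicate 1 or 2 alone it was 0.02208 or 0.02168. In shMAFK, ID1 stayed at an adjusted p above the threshold in those fits; without shMAFK replicate 2, whose MAFK level lay in the control range, its log2 change was 0.95. In shKDM1A, the log2 change of ID1 was 1.20 without shKDM1A replicate 2, a fit in which replicate 1 stood alone.

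The knockdowns were also compared with each other. ID1 was lower in shSMARCA4 than in shMAFK by a log2 difference of -1.89 (SE 0.28, 95% interval -2.53 to -1.25, adjusted p = 0.005214 by limma), and this passed the threshold in all 20 alternative fits (adjusted p = 0.0004275 to 0.04732). ID1 was lower in shSMARCA4 than in shKDM1A by -1.79 (SE 0.28, adjusted p = 0.007968). That call was lost without shSMARCA4 replicate 2, at -1.60 and an adjusted p of 0.06343. Between shMAFK and shKDM1A the difference in ID1 was 0.10, with an interval of -0.54 to 0.74, which leaves room for a difference in either direction.

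Because ID1 was the gene that differed among groups, the bases before its start are shown, followed by those of ID4, whose RefSeq window lies clear of its annotated gene body; the ID1 window reaches into its gene body, and those last bases are left out. The sequences are RefSeq's (GRCh38.p14), plus strand, 244 bases at chr20:31605039-31605282 and 250 bases at chr6:19837120-19837369. Capitals mark GTCT, the core of the SMAD binding element, or its reverse complement AGAC.
ID1: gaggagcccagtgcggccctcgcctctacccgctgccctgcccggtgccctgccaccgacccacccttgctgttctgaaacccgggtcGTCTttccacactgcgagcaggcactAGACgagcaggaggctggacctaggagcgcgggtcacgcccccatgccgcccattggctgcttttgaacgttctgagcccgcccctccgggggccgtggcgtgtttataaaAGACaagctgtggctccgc
ID4: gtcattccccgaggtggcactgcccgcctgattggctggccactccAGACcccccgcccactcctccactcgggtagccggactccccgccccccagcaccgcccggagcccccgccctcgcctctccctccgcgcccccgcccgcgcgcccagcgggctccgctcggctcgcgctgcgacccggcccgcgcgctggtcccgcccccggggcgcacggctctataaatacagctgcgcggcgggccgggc

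The 250 bases before the RefSeq start of ID1 held GTCT 3 times on either strand, 162, 136 and 25 bases before the start. GTCT was in 77.5% of all 35116 windows of that length, and in 75.1% of those of genes in the table, so its presence is common. The ID1 window held no GGCGCC (a GC-rich SMAD motif, in 16.4% of windows), no CANNTG (the E-box bound by E proteins, 61.8%), no TGCTGA (a MAF half-site, 14%) and no GCGGGA (an E2F core, 23.5%), all searched on both strands. Bases farther upstream were not searched, so a motif missing from the window may still lie beyond it. The ID4 window held 1 GTCT, 1 CANNTG and 1 GCGGGA, which did not overlap. BAMBI's window held GTCT 4 times and GGCGCC 3 times, those of ID2 and ID3 held GTCT 2 times each, and BMPR1A's held no GTCT. The windows of ID2 and ID3 lie wholly inside their annotated gene bodies and that of BAMBI partly, so these matches are not all upstream of the gene. A match is a description of the letters and not a bound site.

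ID3 (ENSG00000117318, chr1:23557918-23559794), which is usually induced together with ID1, was at 2232 and 2340 in shLUC, 1662 and 1686 in shSMARCA4, 3873 and 2740 in shKDM1A, 1922 and 1482 in shMAFK and 2257 and 2296 in shE2F6. The shSMARCA4 and shMAFK libraries were all below shLUC and overlapped each other, shE2F6 lay within the shLUC range, and both shKDM1A libraries were above it. The log2 change was -0.45 in shSMARCA4 (SE 0.20, unadjusted p = 0.04929, adjusted p = 0.3048 by limma) and 0.51 in shKDM1A (SE 0.20, unadjusted p = 0.02936, adjusted p = 0.4067). Without shKDM1A replicate 2, so that replicate 1 stood alone, the log2 change of ID3 in shKDM1A was 0.76. In shMAFK, ID3 was low in the libraries where ID1 was high. That ID3 change had an unadjusted p of 0.05436 by limma (adjusted p = 0.585). Neither gene passed the adjusted threshold there against shLUC.

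ID3 was lower in shSMARCA4 than in shKDM1A by a log2 difference of -0.96 (SE 0.20, adjusted p = 0.02398 by limma). This call was lost when any of 5 single libraries was left out: the adjusted p was 0.05088 and 0.05066 without shLUC replicate 1 or 2, 0.1155 and 0.1121 without shSMARCA4 replicate 1 or 2, and 0.06163 without shKDM1A replicate 1. Between shMAFK and shKDM1A, ID3 differed by -0.95 with an adjusted p of 0.1638.

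ID2 (ENSG00000115738, chr2:8678845-8684453), an ID gene with broad expression outside BMP responses, was at 692 and 841 in shLUC, 1118 and 808 in shSMARCA4, 534 and 798 in shKDM1A, 718 and 856 in shMAFK and 502 and 543 in shE2F6. Only the shE2F6 libraries stood clear of shLUC, below it, with a log2 change of -0.55 (SE 0.24, unadjusted p = 0.04616, adjusted p = 0.9731 by limma).

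ID4 (ENSG00000172201, chr6:19837386-19840684), known for its part in neural progenitors, was at 315 and 450 in shLUC, 542 and 655 in shSMARCA4, 876 and 300 in shKDM1A, 514 and 718 in shMAFK and 250 and 226 in shE2F6. The shSMARCA4 and shMAFK libraries were above shLUC, those of shE2F6 were below it, and those of shKDM1A lay on both sides. No comparison of ID4 with shLUC reached an unadjusted p of 0.05; in shSMARCA4, where ID1 was low, the log2 change of ID4, singled out after its values were seen, was 0.66 (SE 0.42).

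**Figure D2:**
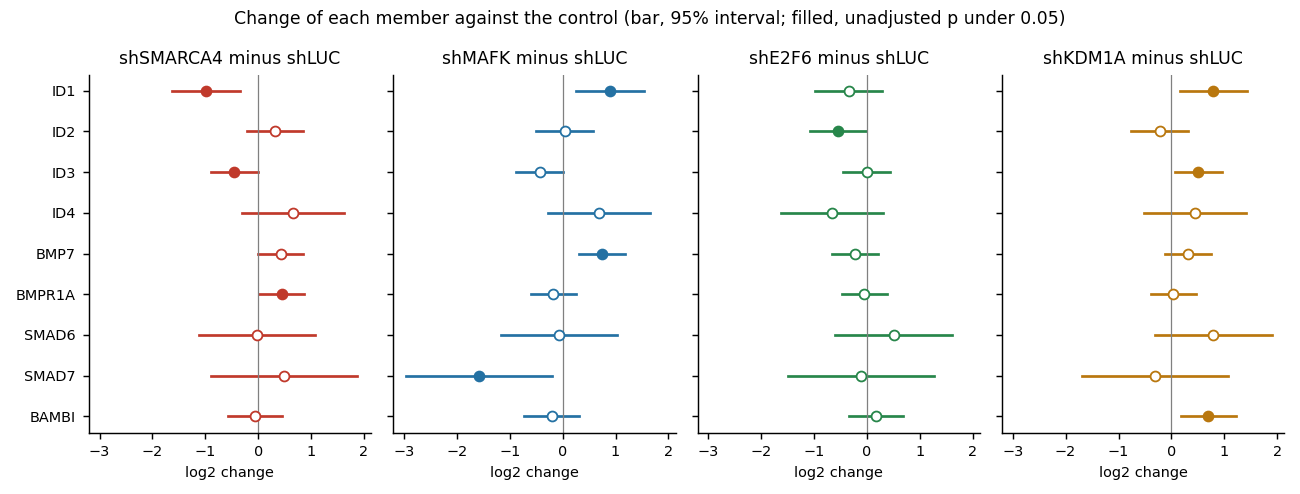
Log2 change against shLUC (x axis) of each of the 9 genes (y axis) in the 4 knockdowns, with its 95% interval from the limma fit as a bar. Filled points have an unadjusted p under 0.05; ID1 lies at -0.99 in shSMARCA4 and at 0.89 and 0.79 in shMAFK and shKDM1A, and the intervals of SMAD7 and SMAD6 are the widest.

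Counted over the 9 genes, limma called 0 past the adjusted threshold in shSMARCA4, where 4.18% of all rows were called, 0 in shMAFK (0.0135% of rows), 0 in shE2F6 (0% of rows) and 0 in shKDM1A (0.0271% of rows). At an unadjusted p under 0.05 there were 3 of 9 in shSMARCA4 (16.3% of rows), 3 in shMAFK (8.77%), 1 in shE2F6 (5.09%) and 3 in shKDM1A (11.5%). In the F-test, 1 of 9 passed the adjusted threshold (5.07% of rows) and 5 of 9 had an unadjusted p under 0.05 (21.1%). With each group given its own weight for spread, 1 of 9 was called in shSMARCA4 (ID1, 8.83% of rows) and 3 of 9 in shMAFK (ID1, BMP7 and SMAD7, 3.29% of rows).

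The 2 libraries of a group lay wholly above or below shLUC for 7 of 9 genes in shSMARCA4 (4 above, 3 below), where 51.0% of all rows did so. In shMAFK this held for 7 of 9 (3 above, 4 below; 49.1% of rows), in shE2F6 for 5 of 9 (2 above, 3 below; 40.7%) and in shKDM1A for 4 of 9 (all above; 38.8%). Direct differences past the adjusted threshold were found for 1 of 9 genes between shSMARCA4 and shMAFK (7.76% of rows) and 2 of 9 between shSMARCA4 and shKDM1A (6.87%). There were 0 of 9 between shSMARCA4 and shE2F6 (3.55%), shMAFK and shE2F6 (0.487%), shMAFK and shKDM1A (0.0406%) and shE2F6 and shKDM1A (0.129%). At an unadjusted p under 0.05 these 4 comparisons had 5 of 9 (15.6% of rows), 5 of 9 (13.1%), 3 of 9 (13%) and 5 of 9 (15.2%). At that cut shSMARCA4 against shMAFK had 3 of 9 (3152 of 14785 rows). Between shSMARCA4 and shKDM1A it was 4 of 9 (3551 of 14785 rows). The median size of the log2 change over the 9 genes was 0.45 in shSMARCA4, 0.44 in shKDM1A, 0.44 in shMAFK and 0.23 in shE2F6, against 0.21, 0.23, 0.17 and 0.15 over all rows.

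Of 96 entries in a wider list of the pathway, 62 genes had a row. In shSMARCA4, 7 of the 62 passed the adjusted threshold, 3 higher and 4 lower (4.18% of all rows did so), and 21 had an unadjusted p under 0.05 (16.3% of rows). In shMAFK, shE2F6 and shKDM1A limma called 0 of 62, with 10, 3 and 8 at an unadjusted p under 0.05, against 8.77%, 5.09% and 11.5% of rows. The median log2 change over the list was 0.09 in shSMARCA4, -0.07 in shKDM1A, 0.01 in shMAFK and -0.03 in shE2F6. The count of 7 in shSMARCA4 ranged from 0 to 8 when single libraries were left out, with 0 left when shLUC replicate 2 was out and 1 when replicate 1 of that group was. It was 2 without either shSMARCA4 library, 3 without either shMAFK library and 4 without either shE2F6 library.

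Among the extracellular antagonists and modulators (11 of 21 listed had a row), FST and FSTL1 changed in shSMARCA4. FST, follistatin, which binds activins and some BMPs, was at 362 and 444 in shLUC and rose to 963 and 960 (log2 change 1.26, adjusted p = 0.03145 by limma). FSTL1, a follistatin-like secreted protein, fell from 7680 and 7784 to 5420 and 4065 (-0.72, adjusted p = 0.04367).

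The signal-carrying SMADs and their regulators all had a row (16 of 16). CTDSP1, a small phosphatase that acts on SMADs among other substrates, was at 326 and 266 in shLUC and rose to 668 and 584 in shSMARCA4 (log2 change 1.08, adjusted p = 0.02605 by limma). Its relative CTDSPL fell from 1240 and 1132 to 636 and 636 (-0.90, adjusted p = 0.03472). The related phosphatase genes CTDSP2 and PPM1A did not pass in shSMARCA4 (adjusted p = 0.6649 and 0.4749), and none of SMAD1, SMAD5, SMAD9 and SMAD4 passed the threshold in any knockdown.

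The other calls were genes of the NODAL, activin and TGF-beta branches (15 of 18 had a row). NODAL, a ligand that signals through SMAD2 and SMAD3, was at 138 and 91 in shLUC and rose to 2112 and 664 in shSMARCA4 (log2 change 3.39, adjusted p = 0.01327 by limma). TGFBR3, the co-receptor betaglycan, fell from 201 and 192 to 89 and 75 (-1.25, adjusted p = 0.009931). INHBE, an activin subunit, was at 8 and 9 in shSMARCA4 (-4.04, adjusted p = 0.02504), but its shLUC libraries lay far apart, at 57 and 419.

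No gene was called in the remaining roles. Of the 4 ligands with a row, of 13 listed, BMP3 was at 125 and 144 in shLUC and 0 and 23 in shMAFK (log2 change -4.79, adjusted p = 0.5047 by limma), and GDF11 was at 618 and 694 in shLUC and 421 and 432 in shSMARCA4 (-0.62, adjusted p = 0.3712). Among receptors and co-receptors (8 of 11), RGMB, a BMP co-receptor, was at 390 and 520 in shLUC and 912 and 750 in shMAFK (0.88, adjusted p = 0.176). The co-receptor RGMA was at 809 and 810 in shLUC and 236 and 645 in shKDM1A (-1.05, adjusted p = 0.4067).

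Among 5 of 14 other BMP target genes, HEY1, a repressor also driven by Notch, was at 79 and 72 in shLUC and 17 and 30 in shMAFK (log2 change -1.69, adjusted p = 0.3345 by limma). TBX3, a T-box factor, was at 43 and 42 in shLUC and 99 and 141 in shSMARCA4 (1.45, adjusted p = 0.1677). The E proteins, the partners that ID proteins hold, all had a row (3 of 3). TCF3 lay between 7786 and 11280 except at 5846 in shKDM1A replicate 1, and TCF4 lay between 1450 and 2394.

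**Figure D3:**
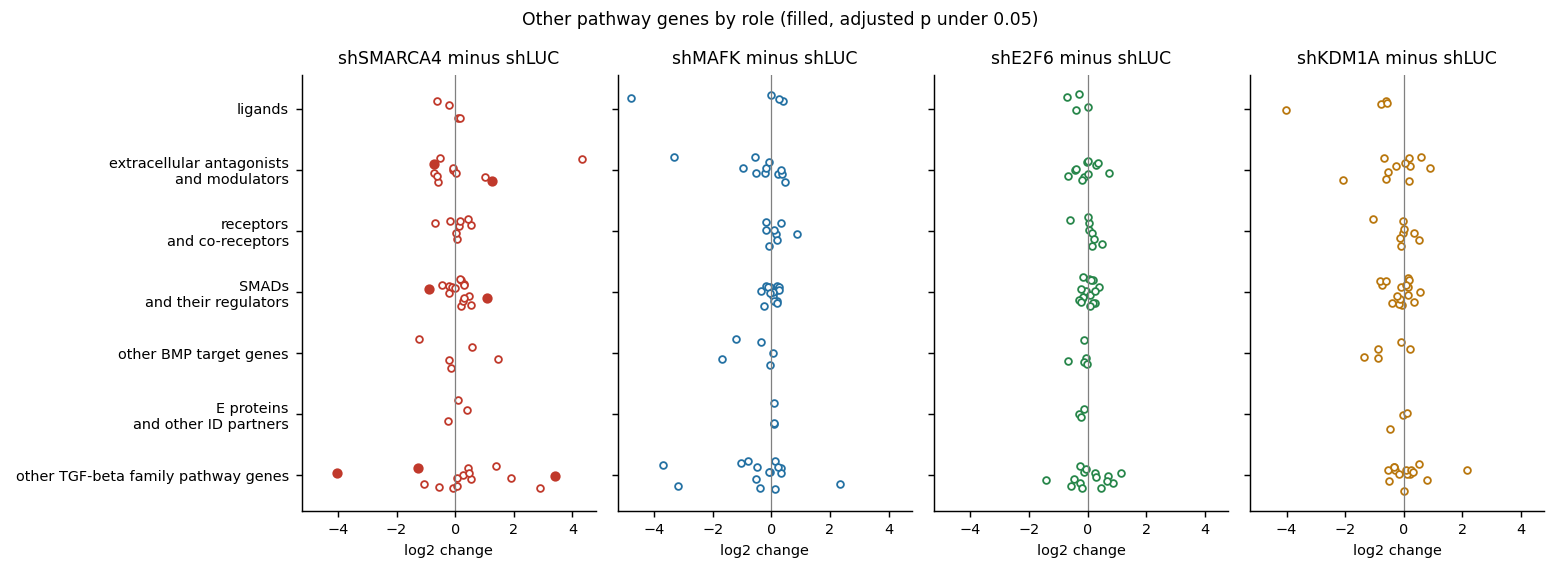
Log2 change against shLUC (x axis) of the 62 other pathway genes, by role (y axis), in the 4 knockdowns; each point is a gene, spread vertically only for legibility. The 7 filled points, all in shSMARCA4, have an adjusted p under 0.05.

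Markers of other cell types moved with shSMARCA4, where 4.18% of all rows passed the adjusted threshold. The mesendoderm list (4 of 13 had a row) summed to 5271 and 1163 in shSMARCA4 and to 72 to 153 in the other 8 libraries, and MIXL1 was the 1 member called (1809 and 132 against 20 and 14 in shLUC, log2 change 4.79, adjusted p = 0.03653 by limma). EOMES was at 2430 and 724 in shSMARCA4 and at 0 to 34 elsewhere, with 0 in 3 libraries; TBXT and SOX17 are not analysed here. The list for fibroblasts or other mesenchyme (6 of 8) summed to 6792 and 7728 in shSMARCA4 and to 16390 to 31297 elsewhere. All 6 had a negative log2 change. Of these, 4 passed the adjusted threshold (COL1A1, THY1, VIM and PDGFRB, adjusted p = 0.001099 to 0.01775 by limma).

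Of the trophoblast and amnion list (5 of 15 had a row), all 5 had a lower mean in shSMARCA4 than in shLUC, with a median log2 change of -1.78. IGFBP3, at 141 and 162 in shLUC and 48 and 28 in shSMARCA4, missed the adjusted threshold (-2.01, adjusted p = 0.07083 by limma). The threshold was passed by 2 of the 5, against 4.18% of all rows. KRT7, a keratin, went from 218 and 296 in shLUC to 30 and 44 (log2 change -2.77, adjusted p = 0.00463 by limma), and GABRP, a GABA receptor subunit, from 254 and 316 to 95 and 70 (-1.78, adjusted p = 0.00976). The list's sum, 4569 and 6586 in shSMARCA4 and 4665 to 9963 elsewhere, is mostly KRT18, which was at 4340 and 6408 against 6012 and 6012. CDX2, GATA2, GATA3, TFAP2A and HAND1 are not analysed here.

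Of the neural ectoderm list (5 of 11), ZIC1, a zinc finger factor, rose from 95 and 149 in shLUC to 462 and 1004 in shSMARCA4 (log2 change 2.51, adjusted p = 0.01473 by limma), and it was the 1 member called. The list's sum, mostly NES and TUBB3, was 6780 to 9597 in shSMARCA4 and 7153 to 13741 elsewhere. The pluripotency list (12 of 12) summed to 146563 to 168572 in shSMARCA4 and 164649 to 270599 elsewhere. Of the 12, limma called 0 (4.18% of all rows), with 1 higher and 3 lower at an unadjusted p under 0.05 (16.3% of rows). In such bulk samples fewer cells of a type and less RNA per cell cannot be told apart. The part of all these markers in the levels of ID1, ID3, BMPR1A, NODAL and FST was not tested.

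In shKDM1A, replicate 1 held the highest sum of the mesenchyme list, 31297, of which COL1A1 and COL1A2 made up 8374 and 13159. It also held the highest sum of the pluripotency list, 270599, but POU5F1 alone made up 148866 of it, against 35710 in replicate 2. Every library has 148866 as its highest value, so this places POU5F1 at the top rank and is not a measured fold change. NANOG, LIN28B, DPPA4 and PRDM14 were lower in replicate 1 than in replicate 2, at 1704, 1760, 12828 and 291 against 2923, 3190, 23453 and 616. The same replicate 1, with KDM1A at 3290 against 1879 in replicate 2, held the highest ID1, ID3, ID4, SMAD6 and BAMBI of all 10. Without it, the log2 changes in shKDM1A were 0.39 for ID1, 0.26 for ID3 and 0.31 for BAMBI.

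For each gene, the 3 rows with the highest Pearson correlation over the 10 libraries were listed, as a description over libraries that share groups and normalization. For ID1 these were DR1 (r = 0.983), ATPAF1 (0.974) and GRIA1 (0.967). For ID3 they were RGS10 (0.984), CLIP2 (0.977) and TIE1 (0.976). ID2 was closest to FUT8 (0.967), PTK7 (0.948) and AC098487.1 (0.938), and ID4 to LINC01896 (0.965), ZNF790 (0.946) and AC008770.2 (0.935). None of these 12 is a gene of the pathway list, and no ID gene was in another ID gene's list.

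BMP7 was closest to CRCP (0.928), MAU2 (0.926) and PHLDB1 (0.912). BMPR1A was closest to HEBP2 (0.964), MIXL1 (0.959) and PCDH10 (0.957), of which MIXL1 is on the mesendoderm list above. SMAD6 was closest to BAG2 (0.954), NOP14 (0.954) and TNIP2 (0.952), SMAD7 to IPPK (0.956), ITGB5 (0.952) and IVNS1ABP (0.950), and BAMBI to UST (0.985), TMSB10 (0.973) and CCDC61 (0.968).

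**Figure D4:**
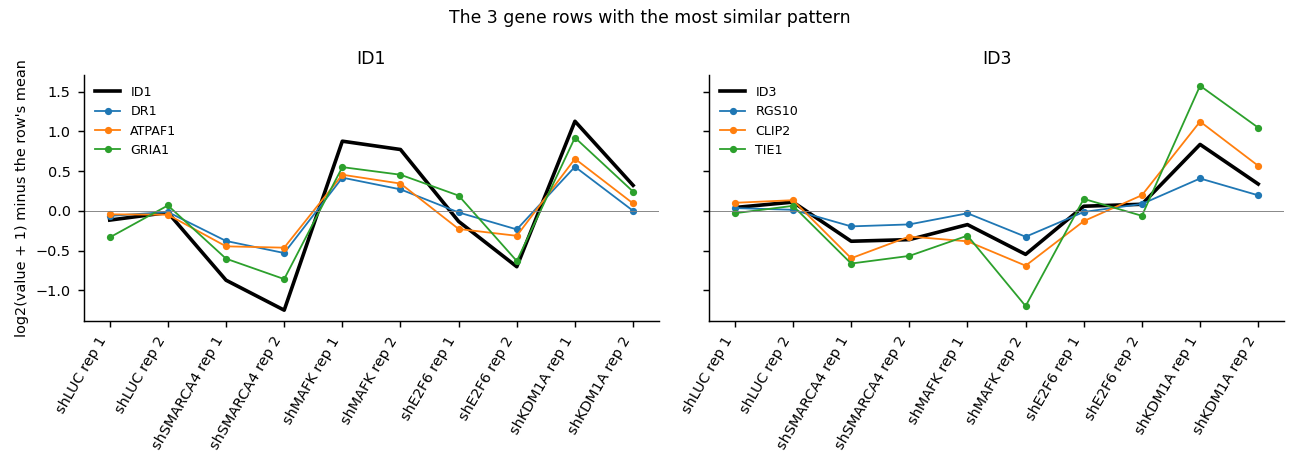
Level of ID1 (left) and ID3 (right) with their 3 most similar rows, as log2(value + 1) minus the row's mean over the 10 libraries (y axis), by library (x axis). The ID1 group is lowest in shSMARCA4 and high in shMAFK and shKDM1A replicate 1, whereas the ID3 group is low in both shSMARCA4 and shMAFK.

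Within the 9 genes the highest correlation was between ID3 and BAMBI, at 0.92 over 10 libraries and 0.81 over the 8 without shKDM1A. ID1 and ID3 stood at 0.42 over 10 libraries and at -0.05 over those 8. BMPR1A and SMAD7 stood at 0.74 and 0.78, and ID4 and BMP7 at 0.72 and 0.80. ID4 and BAMBI stood at 0.14 over 10 libraries and -0.89 over 8. Several of these values thus changed in sign or size without the shKDM1A libraries.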

How the data were processed

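Total RNA from H1 cells was sequenced on an Illumina NovaSeq after NEBNext Ultra library preparation, per the labels' protocols. STAR, STARsolo and hg38 are named in the submitters' processing notes, with no version or role. The deposited table holds whole-number normalized values (treated as a score; "normalized tag count" is a reading of the table's abbreviation), and the authors' method of normalization, and whether reads were counted by strand, are not given in the sources used here. All 10 libraries had a median of 594, the same highest value of 148866, and the same value at 80.3% of ranks. A level is thus relative to a fixed distribution, depth is unknown, and no count model was used.

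Groups came from the labels. Rows with a mean of at least 10 (all rows; the lowest was 19.3) were fitted in limma 3.58.1 (R 4.3.3) on log2(value + 1), with 5 residual degrees of freedom and a mean-variance trend. For low genes, fold changes on this scale depend on the added 1, and a value of 0, as for BMP3 in shMAFK, weighs heavily. Named pathway genes are those past the adjusted threshold in any knockdown and, in roles with none, the 2 with the smallest unadjusted p. The log2 change of a member is given where its unadjusted p was under 0.05, with ID4 in shSMARCA4 and the largest differences between knockdowns added after their values were seen. The members, lists and tests were chosen with earlier results of these data known. Alternatives changed the pseudocount, filter, normalization, trend, group weights, replicate block and libraries. The fit was tested on simulated data with the same spread in every group, so that test does not cover the uneven shKDM1A libraries. Gene positions are from GENCODE 29 and promoter windows from RefSeq (8 of the 9 genes had a window, and BMP7 did not). Tables and figures used Python 3.11.15, pandas 2.3.3 and matplotlib 3.10.9.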

Additional observations from a re-analysis of the deposited data

How the results depend on the processing

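All 10 log2 changes named for the 9 genes kept their direction in all 207 alternative values. Most of these values could not differ, because a change is the difference of 2 group means. Only another pseudocount, quantile normalization or the loss of a library from a group compared could move it, so the agreement says little. The cause of the changes below was not tested. Genes of the 9 called against shLUC in shSMARCA4 went from 0 to 1 (ID1) with group weights, with the replicate block (adjusted p = 0.04931), without both shKDM1A libraries and with only the 2 groups compared, and ranged from 0 to 1 with single libraries left out. In shMAFK they went from 0 to 3 with group weights, and in shKDM1A from 0 to between 0 and 5 with single libraries left out, 5 being without shKDM1A replicate 2 (ID1, ID3, ID4, SMAD6 and BAMBI; 21.9% of rows). Pathway genes called went from 7 to between 0 and 8 in shSMARCA4 and from 0 to between 0 and 13 in shKDM1A with single libraries left out. In shMAFK they went from 0 to 2 with group weights. The count of 13, of 62 genes, came without shKDM1A replicate 2, where replicate 1 stood alone and 21.9% of all rows passed. It is thus not particular to the pathway. Rows called in shSMARCA4 went from 618 to 1306 with group weights, 1162 without both shKDM1A libraries and 89 to 1159 with single libraries left out. In shMAFK they went from 2 to 5 with quantile normalization, 5 with no trend, 487 with group weights, 1 with the replicate block, 34 without both shKDM1A libraries, 32 with only the 2 groups compared and 0 to 37 with single libraries left out. In shE2F6 they went from 0 to 21 with group weights, 5 without both shKDM1A libraries, 1 with only the 2 groups compared and 0 to 5 with single libraries left out. In shKDM1A they went from 4 to 9 with no trend, 2 with group weights, 1 with only the 2 groups compared and 1 to 3235 with single libraries left out. Genes called by the F-test went from 1 to 4 with group weights (ID1, ID4, BMP7 and SMAD7; 10.2% of rows), 2 with the replicate block (5.15%), 4 without both shKDM1A libraries (11.9%) and 0 to 8 with single libraries left out, 8 being without shKDM1A replicate 2, where 31.6% of rows passed; the adjusted F-test p of ID1 then ranged from 0.002021 to 0.1018. Direct differences went from 3 to 9 with group weights, 6 with the replicate block and 1 to 22 with single libraries left out. In the comparisons with such calls, 1.1% to 14% of rows passed with group weights and 0.6% to 8.56% with the replicate block. The highest of these counts of direct differences came without shKDM1A replicate 2, a fit in which replicate 1 stood alone. Whether it is particular to the 9 genes was not tested. With single libraries left out, the ID1 difference between shSMARCA4 and shKDM1A ranged from -2.19 to -1.38 and that of ID3 from -1.21 to -0.71. With group weights ID3 was at -0.96 with an adjusted p of 0.1534. Libraries with the same replicate number were not treated as pairs, since the correlations of their deviations between groups, over all rows, ran from -0.05 to 0.337 and not all exceeded 0.1. That choice matters for genes that were higher in replicate 1 in every group. With the replicate block, BMP7 had an adjusted F-test p of 0.03984. Between shSMARCA4 and shMAFK, SMAD7 and BMPR1A then had an adjusted p of 0.01968 and 0.04255 by limma. BAMBI was not called in that fit. Removing the filter changed nothing. Groups of 2 libraries limit the precision of every value.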

Other observations

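BMP7, BMPR1A, SMAD7 and BAMBI had the higher value in replicate 1 in all 5 groups, which 6.12% of all rows did, while 5.79% had the higher value in replicate 2 in all 5. The replicates of BAMBI in shLUC differed by the smallest amount, 487 against 486.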
